A study of Mus musculus with 6 samples.

Results

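The heat-shock proteins and their DnaJ cochaperones were followed as a module of 66 genes among the 23224 gene symbols of the count table. Members were the genes whose symbol starts with Hsp90, Hspa, Hspb, Hspd, Hspe, Hsph or Dnaj and whose estimated counts summed to 30 or more over the 6 libraries. Of 74 symbols with such a start, Dnajc5b, Dnajc5g, Dnajc6 and Hspb3 were at 0 in every library. Dnajb8, Hspb2, Hspb7 and Hspa12a fell short of the minimum with sums of 3, 11, 19.5 and 24. The members just inside it were Hspb9, Dnajb3 and Dnajc22, with sums of 32, 34 and 36. By role the module held 3 HSP90 genes, 13 HSP70 and HSP110 genes, 4 small heat-shock proteins and the 2 genes of the mitochondrial chaperonin. It also held 4 class A, 12 class B and 25 class C DnaJ genes. The prefix Hspb caught 3 further genes that encode no small heat-shock chaperone, namely Hspbp1, a nucleotide exchange cofactor of HSP70, Hspbap1 and Hspb11.

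The RNA came from dendritic cells (DC) sorted by flow cytometry out of MC57-SIY tumors, 7 days after the tumor cells had been placed under the flank skin of C57BL/6 mice. The tumor line MC57 is a fibrosarcoma of mouse origin, and SIY is a peptide that CD8+ T cells recognise as antigen. The 3 groups of 2 libraries were CD103+ DC1 from Rag2-/- hosts (replicates 2 and 3), ISG+ DC from Rag2-/- hosts (replicates 2 and 3) and ISG+ DC from WT hosts (replicates 1 and 2). All groups carried the same tumor and received no other agent according to the labels. Tumors were pooled, and a library stands for 1 of 2 independent experiments. CD103+ DC1 from WT hosts were not analysed here. Conventional DC of the CD103+ DC1 type are known to cross-present antigen. The letters ISG commonly abbreviate interferon-stimulated gene. The sources used here do not give the sort gate. Mature T and B cells are missing from Rag2-/- mice, which keep their myeloid and NK cells.

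HSP70 proteins bind unfolded stretches of other proteins and release them in a cycle driven by ATP. DnaJ proteins hand clients to HSP70 and speed up its ATP hydrolysis through their J domain, and nucleotide exchange factors such as the HSP110 proteins reset it. HSP90 proteins act later, on nearly folded kinases, receptors and transcription factors. Heat-shock factors drive the inducible cytosolic members, whereas the members of the endoplasmic reticulum (ER) follow the unfolded protein response. In DC the ER member Hsp90b1 is known for folding Toll-like receptors and integrins, and some of these chaperones for carrying peptides into antigen presentation.

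Libraries held 6023510 to 15368616 estimated counts, the lowest total in CD103+ DC1 replicate 3. Over the genes tested, that library had Spearman correlations of 0.768 to 0.882 with the other 5, and the value for CD103+ DC1 replicate 2 was greater with Rag2-/- ISG+ DC replicate 2 (0.900) than with CD103+ DC1 replicate 3. The markers of CD103+ DC1 followed the label. Their summed level was 8542 and 4952 CPM (depth-normalized counts) in CD103+ DC1. It was 1243 and 1265 CPM in Rag2-/- ISG+ DC and 647 and 673 CPM in WT ISG+ DC. Of these 10 markers, 8 were called lower in ISG+ DC within Rag2-/- hosts, against 0.862% of all genes tested. Summed type I interferon-stimulated genes were at 3584 and 3207 CPM in CD103+ DC1, 7131 and 6109 CPM in Rag2-/- ISG+ DC and 3128 and 3226 CPM in WT ISG+ DC. ISG+ DC from WT hosts thus stood no higher than CD103+ DC1 in the genes that their name points to. Counts of Rag2 were 0 in both WT libraries, but 39 and 11 in CD103+ DC1 and 40 and 2 in Rag2-/- ISG+ DC. Since the sources used here do not say which part of Rag2 is deleted, these counts check nothing, and the host names below are those of the labels. CPM values are scaled by TMM factors. In sorted bulk RNA, fewer cells of a type and less RNA per cell cannot be told apart.

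The members together took 1.57% and 1.85% of the counts in CD103+ DC1. Their share was 1.39% and 1.37% in Rag2-/- ISG+ DC, and it was 1.07% and 1.13% in WT ISG+ DC. Both CD103+ DC1 libraries therefore lay above both Rag2-/- ISG+ DC libraries, and these above both WT ISG+ DC libraries. HSP90 genes summed to 5195 and 8398 CPM in CD103+ DC1, against 4544 and 4560 CPM in Rag2-/- ISG+ DC and 3703 and 3866 CPM in WT ISG+ DC. For HSP70 and HSP110 genes the sums were 7190 and 6773 CPM, 6548 and 6587 CPM, and 5328 and 5639 CPM in the same order. Small heat-shock proteins were close to absent, with a summed level of 1.70 to 14.03 CPM over all libraries.

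**Figure D1:**
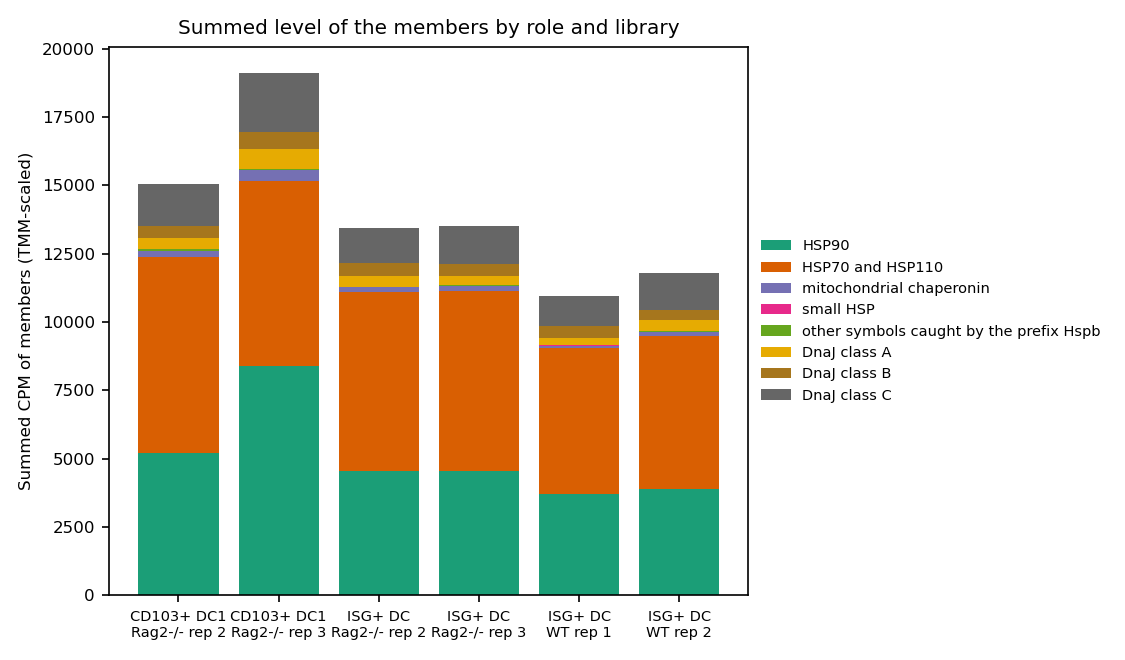
Summed TMM-scaled CPM of the 66 members (y axis) in each of the 6 libraries (x axis), with bar segments by role. HSP90 and HSP70 genes make up most of every bar, and CD103+ DC1 replicate 3 stands highest through its HSP90 segment of 8398 CPM.

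To compare genes with each other, CPM was divided by the length in kb of the longest annotated coding transcript. On this level per kb the same 4 genes led each group, in the order Hspa8, Hsp90ab1, Hsp90b1 and Hsp90aa1. Hspa8, the constitutive cytosolic HSP70, stood at 1820 CPM per kb in CD103+ DC1, 1457 CPM per kb in Rag2-/- ISG+ DC and 1430 CPM per kb in WT ISG+ DC. Hsp90ab1, the constitutive HSP90, followed at 1263, 1010 and 841 CPM per kb. The inducible Hspa1a moved from rank 9 in CD103+ DC1 to rank 6 in Rag2-/- ISG+ DC and rank 5 in WT ISG+ DC, and Hspa1b from rank 10 to ranks 5 and 7. Hspa5, the HSP70 of the ER, held rank 5, 7 and 6.

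Between the DC populations of Rag2-/- hosts, the inducible HSP70 genes Hspa1a and Hspa1b rose in ISG+ DC by 2.33-fold and 2.60-fold, and Hsp90b1, the HSP90 of the ER, was 2.16-fold lower. No other member passed. The count of 3 was 14 without CD103+ DC1 replicate 2, 0 without Rag2-/- ISG+ DC replicate 2 and 1 without Rag2-/- ISG+ DC replicate 3, where 14.6%, 2.59% and 1.93% of all genes tested were called. The further members that passed without CD103+ DC1 replicate 2 were Hsp90aa1, Hsp90ab1, Hsph1, Hspe1, Dnaja1, Dnajb6, Dnajc2, Dnajc8 and Dnajc21, all lower in ISG+ DC, and Dnajb11 and Dnajc4, higher. This comparison asks which chaperones differ between ISG+ DC and CD103+ DC1 where mature T and B cells are missing. Of 62 members tested, 3 passed (4.84%) in the quasi-likelihood test of edgeR after Benjamini-Hochberg adjustment, against 3.69% of all 13223 genes tested, so their share lay near that of all genes. Higher calls made up 2.83% of all genes and lower calls 0.862%. At an unadjusted p under 0.05 there were 10 members, 16.1%, against 14.9% of all genes. The groups did not overlap for 28 of the 62 (45.2%, against 45.9% of all genes). The members' median log2 fold change was -0.32, against -0.02 over all genes, and it was negative for 40 (50.7% of all genes were) and positive for 21 (49.2% of all genes). Without CD103+ DC1 replicate 3 the median was -0.12. That library was the highest of the 6 for 28 of the 62 members (45.2%, against 24.5% of all genes tested). Members without a call include Dnajb13, Dnaja4, Dnajc22 and Hspb9, which the filter on low counts removed before testing.

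Between hosts, no member of ISG+ DC passed. The smallest p-values among members above 10 CPM were those of Hspa1b, Hspa5, Dnajc7, Hspd1 and Hsph1, each lower in both WT libraries than in both Rag2-/- libraries. The comparison asks whether the chaperones of ISG+ DC differ with the presence of T and B cells in the host. The hosts share replicate number 2 alone, and the summed macrophage and monocyte markers given below were higher in WT. Host, experiment and cell composition thus cannot be fully told apart. Over all genes 0.552% passed by edgeR's quasi-likelihood test, 0.287% higher and 0.265% lower in WT. DESeq2 also called 0 members, against 3.16% of all genes. Without CD103+ DC1 replicate 2 edgeR called 3 members (4.95% of all genes) and without replicate 3 it called 4 (5.61% of all genes), all lower in WT. At an unadjusted p under 0.05 edgeR gave 6 members, 9.68%, near the 9.88% of all genes. The groups did not overlap for 30 of the 62 members (48.4%, against 44.5% of all genes). Log2 fold changes were negative for 38 members (51.5% of all genes were) and positive for 24 (48.2% of all genes). The median was -0.14, against -0.03 over all genes, and it was -0.35 without WT replicate 2. Both comparisons use the same Rag2-/- ISG+ DC libraries, so their values for a gene are not independent.

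**Figure D2:**
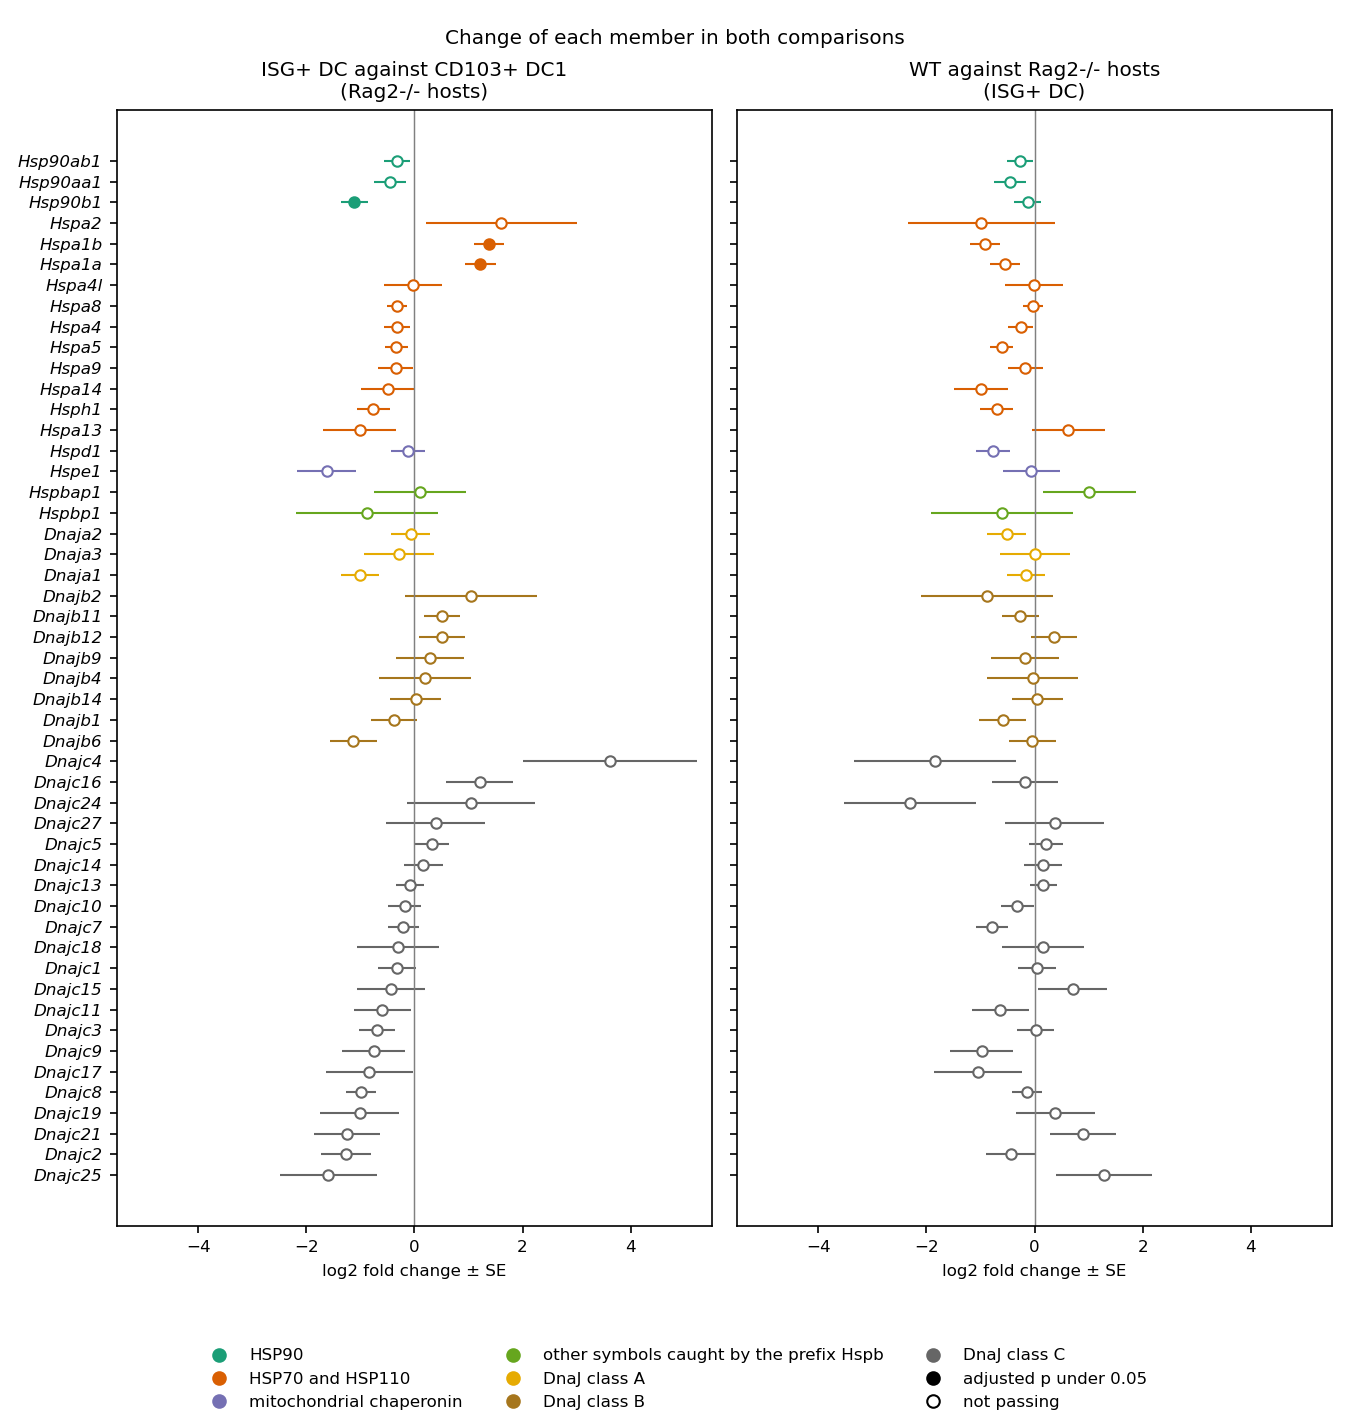
Log2 fold change ± SE (x axis) of the 50 members tested that reached 10 CPM in the mean of at least 1 group, ordered by role (y axis), for ISG+ DC minus CD103+ DC1 in Rag2-/- hosts (left) and WT minus Rag2-/- ISG+ DC (right). Filled points, Hspa1a, Hspa1b and Hsp90b1 in the left panel, have an adjusted p under 0.05, and no point of the right panel does.

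Hspa1a and Hspa1b encode the stress-inducible HSP70 of the cytosol and lie side by side on chromosome 17. The 150 bases before each start site are shown because the pair rose together and these stretches are nearly the same. They are from RefSeq on GRCm38.p6, minus strand, at chr17:34972157-34972306 for Hspa1a and chr17:34959239-34959388 for Hspa1b. Capitals mark the letters GAANNTTC, 2 facing repeats of the heat-shock element.
Hspa1a: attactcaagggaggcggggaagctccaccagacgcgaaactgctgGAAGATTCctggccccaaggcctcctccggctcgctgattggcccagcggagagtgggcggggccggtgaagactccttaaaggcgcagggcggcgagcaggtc
Hspa1b: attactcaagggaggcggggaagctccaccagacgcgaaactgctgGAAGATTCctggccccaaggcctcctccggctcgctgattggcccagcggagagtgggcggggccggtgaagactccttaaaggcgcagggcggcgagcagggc
The stretches were identical at 149 of 150 bases. The transcripts are also close, as 58.8% of the runs of 50 bases in Hspa1a occur in Hspa1b and 62.3% of those in Hspa1b occur in Hspa1a. RSEM divides reads that fit both by a model, so each single value is uncertain and the sum is the firmer measurement.

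Hspa1a was at 417 and 245 CPM in CD103+ DC1, 769 and 773 CPM in Rag2-/- ISG+ DC and 552 and 510 CPM in WT ISG+ DC. Hspa1b was at 340 and 243 CPM, 915 and 601 CPM, and 408 and 398 CPM in the same order. For both genes the Rag2-/- ISG+ DC libraries were the highest and the CD103+ DC1 libraries the lowest, with no overlap between any groups. The sum of the pair was 756 and 488 CPM in CD103+ DC1, 1684 and 1374 CPM in Rag2-/- ISG+ DC and 960 and 907 CPM in WT ISG+ DC. Hspa1a made up 45.7% to 57.5% of the sum over all libraries.

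Between populations Hspa1a rose by 1.22 ± 0.28 (log2 fold change ± SE, n = 2 libraries per group, edgeR adjusted p = 0.0396) and Hspa1b by 1.38 ± 0.28 (edgeR adjusted p = 0.0226). The pair, tested as 1 gene, was 2.46-fold higher (log2 1.297 ± 0.26, edgeR adjusted p = 0.0200). Only Hspa1b passed without Rag2-/- ISG+ DC replicate 3, where edgeR's adjusted p of Hspa1a was 0.162. Neither passed without Rag2-/- ISG+ DC replicate 2, where edgeR's adjusted p was 0.136 for Hspa1a and 0.207 for Hspa1b. In a fit to the 4 compared libraries neither passed (edgeR adjusted p = 0.101 and 0.0721). Log2 values stayed between 0.91 and 1.65 for Hspa1a and between 1.04 and 1.65 for Hspa1b with 1 library left out. Between hosts Hspa1b was lower by a log2 fold change of -0.91 ± 0.28 (edgeR adjusted p = 0.229) and Hspa1a by -0.54 ± 0.28 (edgeR adjusted p = 0.592) in WT ISG+ DC. The pair stood at -0.71 ± 0.26 (edgeR adjusted p = 0.343). These host differences did not pass, but the calls turned with the fit. Hspa1b passed in the fit to the 4 libraries of that comparison (edgeR adjusted p = 0.0436), without a filter on low counts (0.0401), and without CD103+ DC1 replicate 2 (0.00544) or 3 (0.00149). Hspa1a passed without CD103+ DC1 replicate 3 (edgeR adjusted p = 0.0408).

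Other transcripts moved with the pair between populations. Of all genes tested, 2.83% were called higher between populations, and 0.287% were called higher and 0.265% lower in WT ISG+ DC. Immediate-early genes, which tissue dissociation can induce, summed to 2559 and 2243 CPM in CD103+ DC1, 3212 and 4120 CPM in Rag2-/- ISG+ DC and 6672 and 7448 CPM in WT ISG+ DC. In the first comparison 4 of 16 were higher and none lower, with Jun at 4.06-fold (log2 2.02 ± 0.25, edgeR adjusted p = 0.00154). Between hosts 2 of 16 were higher in WT, Fos (log2 1.86) and Fosb (log2 1.84), whereas Hspa1a and Hspa1b were at lower levels there. Without Rag2-/- ISG+ DC replicate 2 neither passed (edgeR adjusted p = 0.108 for Fos and 0.147 for Fosb). Macrophage and monocyte markers summed to 841 and 1028 CPM, 3577 and 5554 CPM, and 10923 and 11014 CPM in the 3 groups, and 12 of 15 were higher between populations. Between hosts 1 of those 15 was higher in WT, Apoe, and none of the 15 was at 0 in all libraries. Of the type I interferon-stimulated genes, whose sums are given above, 6 of 16 were higher between populations, and 3 of 16 were lower in WT. Markers of CD11b+ DC and markers that DC share summed to 14212 and 13307 CPM, 20210 and 22105 CPM, and 21790 and 22476 CPM in the 3 groups. Of these 9 genes, 6 were higher between populations and none passed between hosts. The part of any of these genes' cells, of interferon or of dissociation in the rise of Hspa1a and Hspa1b was not tested.

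**Figure D3:**
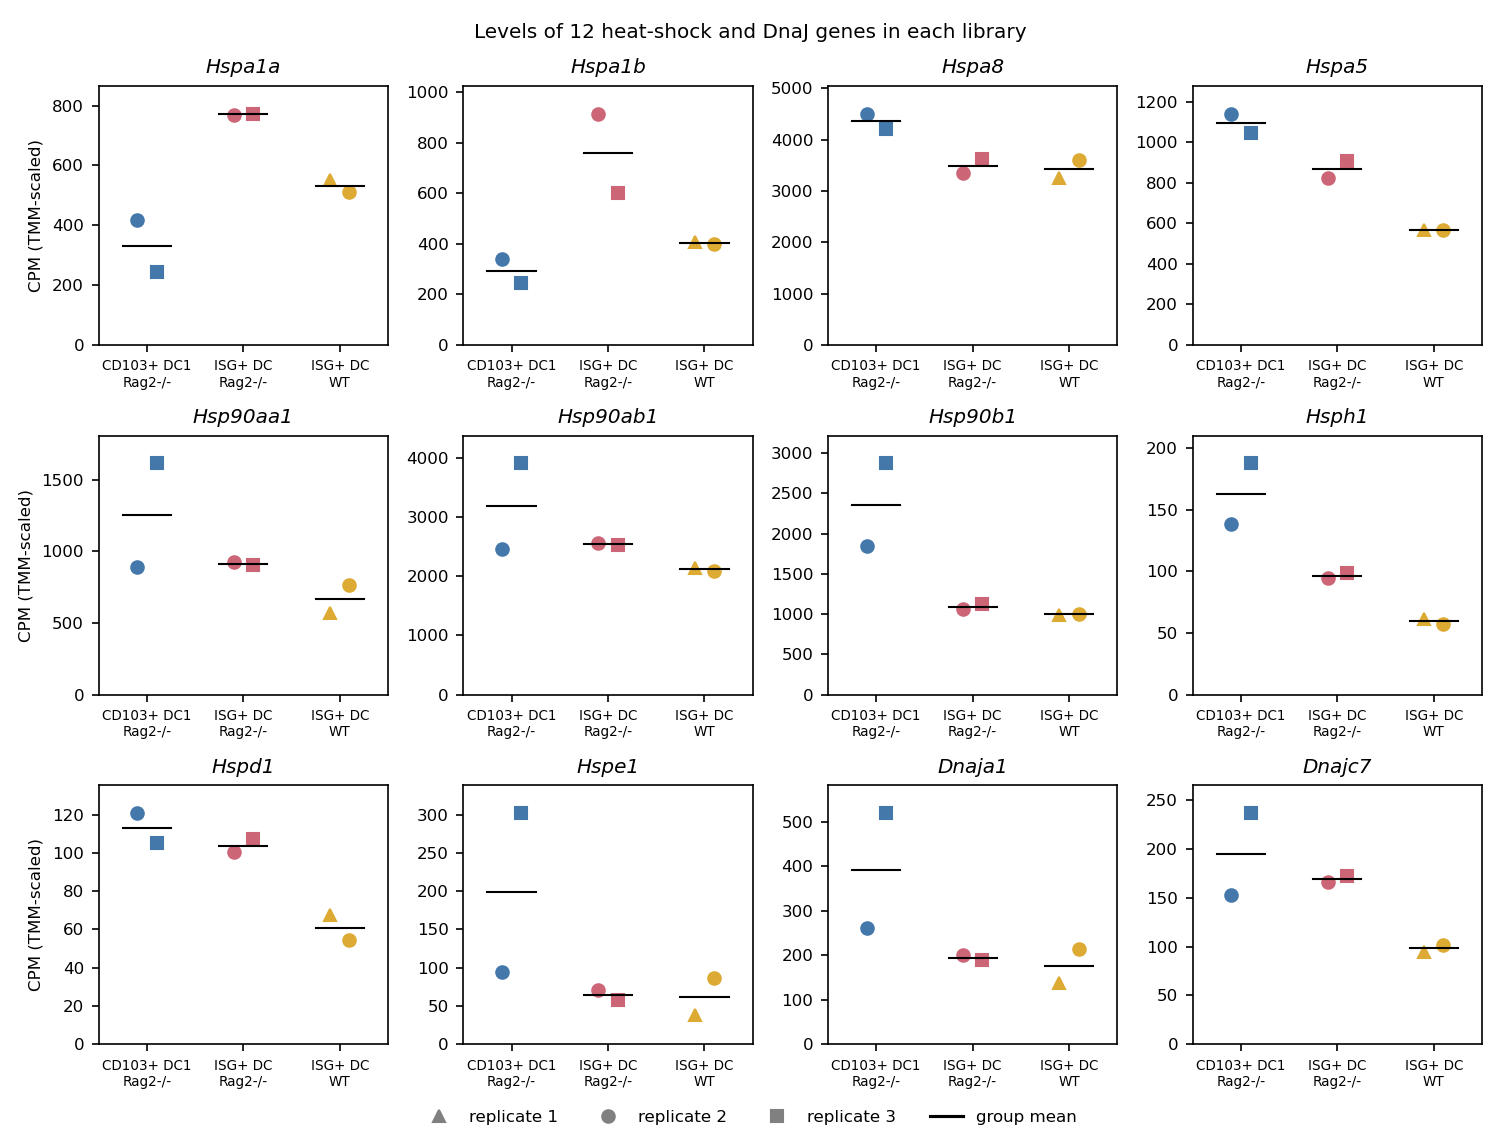
TMM-scaled CPM (y axis, from 0) of 12 members in each library by group (x axis), with marker shapes for the replicate number and a line at the group mean. Hspa1a and Hspa1b peak in Rag2-/- ISG+ DC. For Hsp90aa1, Hsp90ab1, Hspe1 and Dnaja1, CD103+ DC1 replicate 3 stands far above replicate 2. In Hspe1 and Dnaja1 that replicate 2 still lies above every ISG+ DC library.

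Hspa8 was at 4506 and 4210 CPM in CD103+ DC1, 3345 and 3632 CPM in Rag2-/- ISG+ DC and 3244 and 3601 CPM in WT ISG+ DC. CD103+ DC1 were highest, and the ISG+ DC groups overlapped. The log2 fold change between populations was -0.32 ± 0.19 (edgeR adjusted p = 0.493) with a 95% interval of -0.75 to 0.10, so a fall by 1.5-fold is within the interval and a rise of that size is not. Between hosts it was -0.03 ± 0.19, with an interval of -0.45 to 0.40. The constitutive and the inducible HSP70 of the cytosol thus had levels of opposite order between the populations, a difference that was not tested.

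The HSP110 proteins reset HSP70 by nucleotide exchange. Hsph1 was at 139 and 188 CPM in CD103+ DC1, 94.4 and 98.2 CPM in Rag2-/- ISG+ DC and 61.7 and 56.9 CPM in WT ISG+ DC. Its groups did not overlap and stood in that order. Neither step passed, with log2 fold changes of -0.76 ± 0.30 (edgeR adjusted p = 0.260) and -0.70 ± 0.30 (edgeR adjusted p = 0.470). Hspa4, named after its values were seen, had the same order at 348 and 374 CPM, 280 and 297 CPM, and 249 and 234 CPM, with log2 fold changes of -0.32 ± 0.24 and -0.26 ± 0.24 that did not pass (edgeR adjusted p = 0.600 and 0.838). Hspa4l, also named after its values were seen, held 20.9 to 23.3 CPM in all 6 libraries. Hspa14, a ribosome-associated HSP70, was at 45.9 and 47.6 CPM, 35.3 and 31.0 CPM, and 22.2 and 11.1 CPM, and did not pass either (edgeR adjusted p = 0.734 and 0.584).

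The low HSP70 genes gave little information. Hspa1l, a relative of Hspa1a, was at 4.85 and 6.85 CPM in CD103+ DC1 and at most 0.715 CPM in the ISG+ DC libraries, and 9.57% of its 50-base runs occur in Hspa1a. Hspa2 ranged from 0.266 to 19.3 CPM and Hspa12b from 0.0894 to 4.80 CPM. None of these 3 passed in either comparison.

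Hsp90aa1, the inducible cytosolic HSP90, was at 888 and 1614 CPM in CD103+ DC1, 922 and 907 CPM in Rag2-/- ISG+ DC and 570 and 767 CPM in WT ISG+ DC. Hsp90ab1 was at 2456 and 3909 CPM, 2559 and 2532 CPM, and 2142 and 2095 CPM. For both genes CD103+ DC1 replicate 3 was far above replicate 2, which overlapped Rag2-/- ISG+ DC. Their log2 fold changes between populations were -0.45 ± 0.30 and -0.32 ± 0.24 (edgeR adjusted p = 0.541 and 0.616). Without CD103+ DC1 replicate 3 they turned to 0.062 and 0.071. Both WT libraries were lower than both Rag2-/- ISG+ DC libraries, at log2 fold changes of -0.45 ± 0.30 and -0.27 ± 0.24 that did not pass (edgeR adjusted p = 0.702 and 0.836).

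Hsp90b1, which encodes GRP94, folds Toll-like receptors and integrins in the ER. It was at 1851 and 2875 CPM in CD103+ DC1, 1063 and 1121 CPM in Rag2-/- ISG+ DC and 991 and 1005 CPM in WT ISG+ DC. Both CD103+ DC1 libraries were higher than all 4 ISG+ DC libraries. Between populations it fell by 1.11 ± 0.25 on the log2 scale (edgeR adjusted p = 0.0331), and it stood at -0.74 without CD103+ DC1 replicate 3, where it still passed (edgeR adjusted p = 0.00501). Without either Rag2-/- ISG+ DC library the adjusted p of edgeR was 0.194, and it was 0.107 in the fit to the 4 compared libraries. With ISG+ DC of both hosts set against CD103+ DC1 the log2 fold change was -1.18 (edgeR adjusted p = 0.00539). Between hosts it was -0.13 ± 0.24 (edgeR adjusted p = 0.966), with a 95% interval of -0.67 to 0.41. Hsp90b1 was the lone member of 10 listed ER chaperones and ER DnaJ proteins that passed.

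Promoter stretches of the ER members Hsp90b1, Hspa5 and Dnajc3 are shown because they alone among the 54 members with a RefSeq promoter window hold the ER stress element, the letters CCAAT and CCACG with 9 bases between them. The coordinates on GRCm38.p6 are chr10:86705445-86705694 (minus strand), chr2:34771990-34772089 (plus strand) and chr14:118937812-118937931 (plus strand). Each run ends just before the start site, and capitals mark the element in either orientation.
Hsp90b1: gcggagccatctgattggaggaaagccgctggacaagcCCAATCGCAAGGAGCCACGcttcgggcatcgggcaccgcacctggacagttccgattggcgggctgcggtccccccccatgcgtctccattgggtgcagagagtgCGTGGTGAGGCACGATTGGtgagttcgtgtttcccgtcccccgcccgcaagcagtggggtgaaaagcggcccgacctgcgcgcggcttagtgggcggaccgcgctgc
Hspa5: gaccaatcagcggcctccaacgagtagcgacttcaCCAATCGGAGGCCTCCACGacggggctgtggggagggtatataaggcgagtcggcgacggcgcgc
Dnajc3: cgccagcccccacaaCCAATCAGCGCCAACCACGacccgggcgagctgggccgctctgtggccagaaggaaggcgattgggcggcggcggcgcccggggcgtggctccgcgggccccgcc
The windows span 250 bases before to 50 after each start site and were searched on both strands. The element was found in 3 of 54 members (5.56%) and in 0.137% of all 27025 genes with a window. Hsp90b1 held 2 copies, first bases at -212 and -107 from the start site.

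Of the 3 genes with this element, Hspa5 and Dnajc3 did not pass. Hspa5, which encodes BiP, was at 1141 and 1047 CPM in CD103+ DC1, 822 and 910 CPM in Rag2-/- ISG+ DC and 566 and 570 CPM in WT ISG+ DC. Its groups did not overlap. The log2 fold change was -0.34 ± 0.21 between populations (edgeR adjusted p = 0.524) and -0.61 ± 0.21 between hosts (edgeR adjusted p = 0.320). Without CD103+ DC1 replicate 2 or 3 the host difference passed, with edgeR adjusted p = 0.0198 and 0.0120. Dnajc3, an inhibitor of the kinase PERK that also acts as an ER cochaperone, was at 166 and 168 CPM, 77.1 and 129 CPM, and 85.3 and 124 CPM. Its CD103+ DC1 libraries were highest and the ISG+ DC groups overlapped, with a log2 fold change between populations of -0.69 ± 0.34 (edgeR adjusted p = 0.381).

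The other ER members did not pass in either comparison. Dnajb11, a BiP cochaperone, was at 119 and 66.5 CPM in CD103+ DC1, 127 and 138 CPM in Rag2-/- ISG+ DC and 116 and 105 CPM in WT ISG+ DC. It stood higher in Rag2-/- ISG+ DC than in CD103+ DC1 (log2 0.51 ± 0.34, edgeR adjusted p = 0.549). Dnajb9, another BiP cochaperone, ranged from 16.4 to 42.0 CPM with overlapping groups. Dnajc10, a disulfide reductase, lay between 75.9 and 131 CPM with a log2 fold change of -0.18 ± 0.31 between populations (edgeR adjusted p = 0.871). Hspa13 was at 30.9 and 15.1 CPM in CD103+ DC1 and 10.1 and 12.8 CPM in Rag2-/- ISG+ DC (log2 -1.01 ± 0.68, edgeR adjusted p = 0.557). Beyond the chaperones, 25 genes of ER folding and the unfolded protein response were tested. Of these Edem1, which directs misfolded glycoproteins to degradation, rose between populations from 167 and 132 CPM to 319 and 337 CPM (log2 1.13 ± 0.25, edgeR adjusted p = 0.0329). The call was lost without Rag2-/- ISG+ DC replicate 2 or 3 or WT replicate 1 (edgeR adjusted p = 0.149, 0.255 and 0.0538), in the fit to the 4 compared libraries (0.0974) and with the replicate number as a block over these (0.0856). None passed between hosts, where Ppp1r15a, a phosphatase subunit that restores translation, came nearest (log2 1.46 ± 0.29, edgeR adjusted p = 0.0516). It passed in DESeq2 (adjusted p = 0.000146), and by edgeR without a filter (adjusted p = 0.00201), in the fit to 4 libraries (0.00657) and without either CD103+ DC1 library (0.000631 and 0.000169).

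Hspd1 and Hspe1 encode the HSP60 and HSP10 subunits of the mitochondrial chaperonin and start head to head on chromosome 1. The 150 bases before a start site of Hspd1 are shown because they hold a run of heat-shock elements that also lies in the Hspe1 window. RefSeq gives 2 windows for Hspd1, and the other held no such element. The stretch is from RefSeq on GRCm38.p6 at chr1:55087933-55088082, minus strand, with the run of elements in capitals.
Hspd1: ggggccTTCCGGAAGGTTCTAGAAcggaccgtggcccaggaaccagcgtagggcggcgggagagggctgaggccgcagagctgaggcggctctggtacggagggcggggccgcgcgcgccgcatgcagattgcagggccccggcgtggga
The element searched was 3 alternating units of GAA and TTC, starting with either and with 2 bases between units, on both strands. It was found in Hspd1, Hspe1, Hsph1 and Dnajb6, which is 4 of 54 members (7.41%) against 0.662% of all genes with a window. The 12 members without a window, Hsp90aa1, Hsp90ab1, Hspa8 and Hspa9 among them, could not be searched. The Hspd1 and Hspe1 matches are the same run, and those of Hsph1 lie after its start sites. Neither Hspa1a nor Hspa1b holds this longer element in its window. The shorter GAANNTTC, searched after the data were seen, was found in 12 of 54 members (22.2%) and 9.04% of all genes.

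Hspd1 was at 121 and 105 CPM in CD103+ DC1, 101 and 107 CPM in Rag2-/- ISG+ DC and 67.7 and 54.2 CPM in WT ISG+ DC. Between populations it overlapped (log2 -0.12 ± 0.31, edgeR adjusted p = 0.917), and both WT libraries were lower than all others (log2 -0.77 ± 0.31 between hosts, edgeR adjusted p = 0.421). Hspe1 was at 94.8 and 302 CPM, 70.4 and 58.1 CPM, and 37.4 and 86.0 CPM. Its log2 fold change between populations was -1.63 ± 0.54 (edgeR adjusted p = 0.166), and -0.54 without CD103+ DC1 replicate 3. Hspa9, the mitochondrial HSP70, was at 192 and 362 CPM, 246 and 189 CPM, and 182 and 206 CPM, with overlapping groups throughout. Its log2 fold change between populations, -0.35 ± 0.33 (edgeR adjusted p = 0.712), turned to 0.20 without that library. None of the 8 listed mitochondrial chaperones and DnaJ proteins, and none of 12 genes of mitochondrial protein quality control, passed in either comparison.

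Among the DnaJ genes none passed, and the 4 smallest p-values between populations belonged to genes with a higher mean in CD103+ DC1. Dnajc8, a DnaJ protein found with the spliceosome, was at 263 and 345 CPM in CD103+ DC1, 164 and 144 CPM in Rag2-/- ISG+ DC and 121 and 159 CPM in WT ISG+ DC. Both CD103+ DC1 libraries were the highest (log2 -0.98 ± 0.28 between populations, edgeR adjusted p = 0.101), and the gene passed in DESeq2 (adjusted p = 0.0202). Dnaja1, a class A partner of cytosolic HSP70, was at 261 and 520 CPM, 200 and 190 CPM, and 137 and 214 CPM (log2 -1.01 ± 0.35, edgeR adjusted p = 0.191). Dnajc2, which works with Hspa14 at the ribosome, was at 145 and 432 CPM, 112 and 128 CPM, and 65.0 and 113 CPM (log2 -1.26 ± 0.47, edgeR adjusted p = 0.216). Dnajb6, a suppressor of protein aggregation, was at 133 and 367 CPM, 93.7 and 135 CPM, and 125 and 96.6 CPM (log2 -1.13 ± 0.43, edgeR adjusted p = 0.239). In the last 3 genes CD103+ DC1 replicate 3 carried most of the difference: without it the log2 values were -0.41, -0.26 and -0.21. Without CD103+ DC1 replicate 2 all 4 genes passed.

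Other DnaJ genes named here did not pass either. Dnajb1, the best known HSP40, was at 61.2 and 69.5 CPM in CD103+ DC1, 66.0 and 34.6 CPM in Rag2-/- ISG+ DC and 35.1 and 31.6 CPM in WT ISG+ DC (log2 -0.38 ± 0.43 between populations, edgeR adjusted p = 0.778). Dnajc7, which binds both HSP70 and HSP90, was at 153 and 237 CPM, 166 and 172 CPM, and 94.6 and 102 CPM. Both WT libraries were lower than all others (log2 -0.78 ± 0.30 between hosts, edgeR adjusted p = 0.367), and the difference passed when either CD103+ DC1 library was left out (edgeR adjusted p = 0.0444 and 0.0434). Dnajc13, an endosomal DnaJ protein named after its values were seen, kept between 191 and 233 CPM in all 6 libraries. Its log2 fold changes were -0.08 ± 0.25 and 0.16 ± 0.25, with 95% intervals of -0.64 to 0.48 and -0.40 to 0.72. Dnajc5, the cysteine string protein of secretory vesicles, was at 85.4 and 62.9 CPM, 91.9 and 94.4 CPM, and 114 and 101 CPM (log2 0.33 ± 0.32 between populations, edgeR adjusted p = 0.722).

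Members with few counts did not pass. Dnajb7 had 92 and 9 counts in the WT libraries and 0 in all Rag2-/- libraries, and did not pass between hosts (edgeR adjusted p = 0.450). Dnajc4 was at 2.13 and 0 CPM in CD103+ DC1 and 12.02 and 15.8 CPM in Rag2-/- ISG+ DC without passing (edgeR adjusted p = 0.327). Hspb1, the small heat-shock protein HSP27, had at most 5.72 CPM in any library. In the reference annotation, 17 members overlap an exon of another protein-coding gene, Hspa1a and Dnajc7 among them. The sources used here do not give the strand setting of the counting, so reads of such neighbours cannot be separated.

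The stress-inducible cytosolic chaperones, a list of 9 members, thus split. Hspa1a and Hspa1b rose between populations, and no other of the 9 passed. The list median log2 fold change was -0.02, the value of Hspa4l, with 4 values positive and 5 negative. Dnaja1, Hsph1, Hsp90aa1 and Dnajb1 stood at -1.01, -0.76, -0.45 and -0.38. The other positive values were those of Hspb1 and Hspb8, both at low levels. Between hosts none of the 9 passed and the median was -0.54, with 8 values negative. Around the module, none of 3 heat-shock factor genes tested passed. Hsf1, the factor that drives the inducible members, had 21.6 ± 15.6 CPM (mean ± SD, n = 2) in CD103+ DC1, 21.9 ± 1.31 CPM in Rag2-/- ISG+ DC and 20.5 ± 2.47 CPM in WT ISG+ DC. None of 26 other HSP70 and HSP90 cochaperones passed, and none of 13 genes of the TRiC chaperonin and prefoldin. Of the cochaperones, Fkbp4, an immunophilin that binds HSP90, was nearest between hosts. It was at 65.2 and 94.4 CPM in CD103+ DC1, 64.5 and 71.9 CPM in Rag2-/- ISG+ DC and 21.6 and 23.0 CPM in WT ISG+ DC (log2 -1.61 ± 0.38 between hosts, edgeR adjusted p = 0.100). Fkbp4 passed in DESeq2 (adjusted p = 0.00502), and by edgeR without a filter (adjusted p = 0.0161), in the fit to the 4 compared libraries (0.0344) and without CD103+ DC1 replicate 2 (0.00685) or 3 (0.00523).

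**Figure D4:**
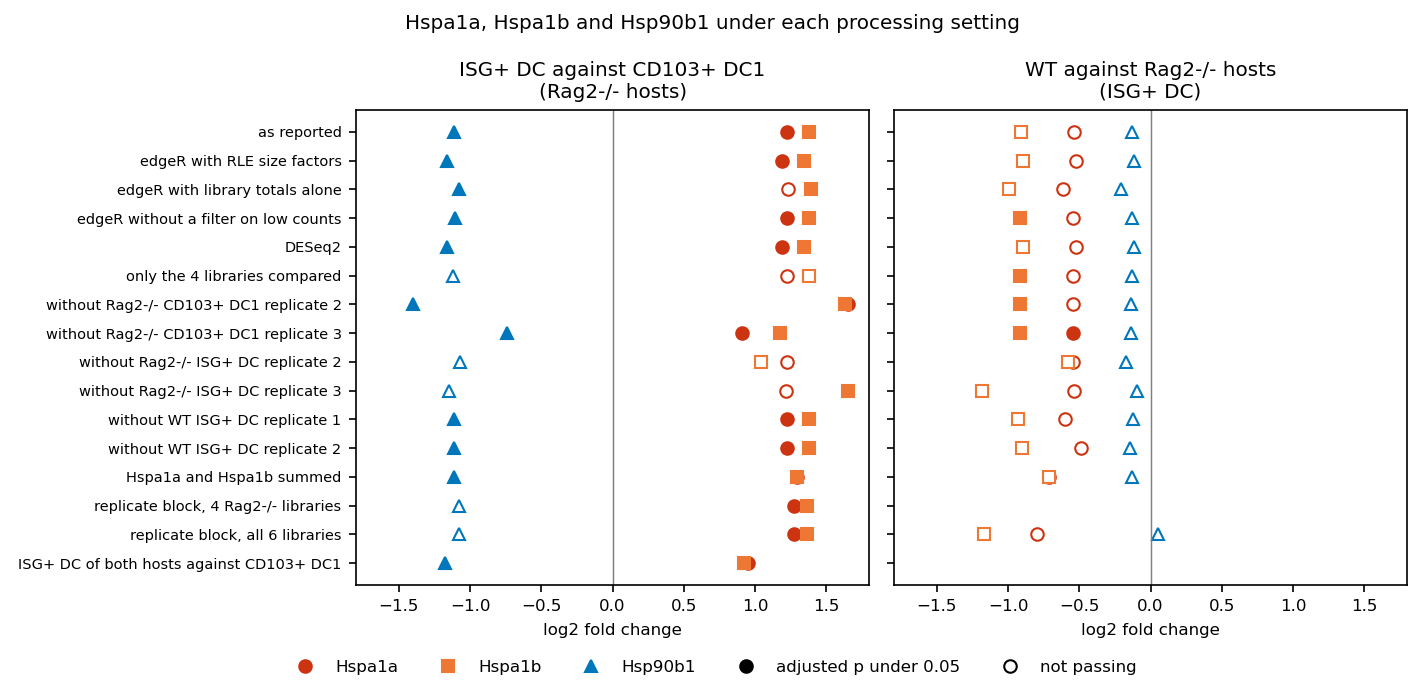
Log2 fold change (x axis) of Hspa1a, Hspa1b and Hsp90b1 under each processing setting (y axis), for ISG+ DC minus CD103+ DC1 in Rag2-/- hosts (left) and WT minus Rag2-/- ISG+ DC (right), with filled markers for an adjusted p under 0.05. The signs of the left panel are the same under every setting drawn, while its 3 calls are all lost in the fit to the 4 compared libraries and without Rag2-/- ISG+ DC replicate 2. Those of Hspa1a and Hsp90b1 are also lost without Rag2-/- ISG+ DC replicate 3, that of Hspa1a with library totals alone and that of Hsp90b1 with either replicate block, and in the right panel Hsp90b1 changes sign with the block over all 6 libraries.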

How the data were processed

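A kit for stranded total RNA at low input gave the libraries, which were read on a NextSeq 500, per the labels' protocols; the labels' molecule field names polyA RNA instead. The authors deposited estimated counts per gene symbol, not normalized, made with Bowtie 1.2.3 and RSEM 1.3.1 on mm9, per the submitters' processing notes. For the annotation and the strand setting, nothing is given in the sources used here.

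Estimated counts were rounded. In R 4.3.3, edgeR 4.0.16 fitted all 6 libraries together after filterByExpr (13223 genes) and TMM scaling, with residual degrees of freedom of 3 and a prior of 7.34. Tests were two-sided quasi-likelihood F tests with Benjamini-Hochberg adjustment over all genes and a threshold of 0.05, and the SE came from the F statistic. The procedure was tested on simulated data, where it missed most 2-fold changes and many 4-fold ones. A gene that did not pass may thus still differ. The share of false calls in the simulated comparison of populations lay slightly above the threshold. With 2 libraries per group an exact permutation test of 1 gene cannot reach the threshold. DESeq2 1.42.0, other scalings, no filter, fewer libraries and a replicate block were alternatives.

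The members and gene lists were chosen with earlier results of these data known. The naming rule took members that passed, those of lowest p in each role and the greatest rises and falls among all members tested. It also took a fixed set of well-known chaperones and, from the other lists, passing genes and that of lowest p. Not all genes so chosen are described, and Dnaja2, Dnajc15 and Dnajc24 are among those left out. Levels per kb used GENCODE vM21 transcripts. Promoter windows were RefSeq's on GRCm38.p6, matched by symbol for 54 members. No gene coordinates of mm9 were used. Reads carry no molecular identifiers, so counts are not independent molecules.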

Additional observations from a re-analysis of the deposited data

How the results depend on the processing

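The common biological coefficient of variation was 0.703 with 2 libraries per group, and members of few counts were measured with wide errors. Between populations the members called were 8 without a filter on low counts, 0 in the fit to the 4 compared libraries, 8 with ISG+ DC of both hosts joined, and 0 to 14 with 1 library left out. They were 14 without CD103+ DC1 replicate 2, 0 without Rag2-/- ISG+ DC replicate 2, 1 without Rag2-/- ISG+ DC replicate 3, and 4 in DESeq2. Between hosts they were 1 without a filter and 1 in the fit to 4 libraries, Hspa1b each time, and 0 to 4 with 1 library left out. The counts of all genes called between populations were 1087 without a filter, 1042 in DESeq2, 297 in the fit to 4 libraries, 1157 with both hosts joined and 278 to 2068 with 1 library left out. Between hosts they were 555, 519, 444 and 27 to 801. Of the genes tested, calls between populations made up 6.62% without a filter, 6.35% in DESeq2 and 2.35% in the fit to 4 libraries. With both hosts joined they made up 8.75%, against the 3.69% given above. Between hosts the shares were 3.38%, 3.16% and 3.59% without a filter, in DESeq2 and in the fit to 4 libraries. Genes tested numbered 16422 without a filter and in DESeq2, and 12658 and 12359 in the fits to 4 libraries. The cause of these shifts was not tested. With 1 library left out, the lone library of a group is assumed to vary like the other groups.

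The members' median log2 fold change ran from -0.37 to -0.12 between populations and from -0.35 to -0.12 between hosts with 1 library left out. Single log2 values that changed sign ranged from -0.83 to 0.062 for Hsp90aa1, -0.62 to 0.071 for Hsp90ab1, -0.74 to 0.20 for Hspa9, -0.20 to 0.066 for Dnajc13 and -0.92 to 0.015 for Dnajb1 between populations. Between hosts Hspa8 ranged from -0.11 to 0.044. With library totals in place of TMM, Hspa1a did not pass (edgeR adjusted p = 0.0526).

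Replicates 2 and 3 of CD103+ DC1 and Rag2-/- ISG+ DC share numbers, but their deviations correlated at 0.02 over all genes, so the numbers may pair nothing. With a replicate block over these 4 libraries 2 members passed, Hspa1a and Hspa1b, and Hsp90b1 stood at -1.08 (edgeR adjusted p = 0.101). A replicate block over all 6 libraries was chosen after seeing the data. It leaves 1 residual degree of freedom, and of the WT libraries its host difference uses replicate 2 alone, the number both hosts share. Between populations it also called Hspa1a and Hspa1b alone. Between hosts it called 0 members and 258 genes, with a member median of 0.040 against -0.15 over all genes, and Hspa8 and Hsp90b1 turned to 0.051 and 0.052. Hspa1b stood at -1.17 there (edgeR adjusted p = 0.456).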
